A study of Mus musculus with 6 samples.

Results

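Transcripts of 10 genes of sphingolipid synthesis and ceramide breakdown were followed in the mouse small intestine after induced deletion of Fitm2, which encodes a lipid droplet protein of the endoplasmic reticulum. The genes were Sptlc1, Sptlc2, Sptssb, Degs1, Degs2, Ugcg, Acer1, Acer3, Asah2 and Enpp7. They were named from the pathway with earlier results of these data known, where 18193 genes had a probe set of their own on the array. A probe set was used where its only annotated gene was one of the 10, and each gene took its value from its brightest probe set, by the mean of log2 over the 6 arrays. On that basis 9 of the 10 genes had a value, from 25 probe sets in all, and each of the 9 passed the filter on dim genes (log2 5.28, an intensity of 38.9). Enpp7, the intestinal alkaline sphingomyelinase, was not analysed here, since the annotation used pairs no probe set with it.

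Control mice were L/L, a label that the sources do not spell out and that usually stands for loxP-flanked alleles. KO mice were ROSA26CreERT2 L/L, that is, the same alleles with a tamoxifen-activated Cre recombinase expressed from the ROSA26 locus, which is not restricted to the intestine. Both genotypes received tamoxifen at 100 µg per g body weight, scheduled for days 1, 2 and 3, so the drug was common to all groups while Cre was present only in KO. Mice taken on day 2 came before the last scheduled dose, so the number of doses and the day of harvest cannot be told apart. No group carried Cre without the L/L alleles, so effects of Cre and of the deletion cannot be told apart. Whole, flushed small intestine was taken on day 2, 3 or 5. RNA was pooled within genotype and day from 6 L/L and 7 KO mice for day 2, 6 of each for day 3, and 8 L/L and 7 KO mice for day 5, and each pool gave 1 array. Neither age nor sex of the mice is stated.

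Sphingolipids are built on a sphingoid base that serine palmitoyltransferase makes from serine and palmitoyl-CoA. The base is reduced, acylated to dihydroceramide by ceramide synthases, and desaturated to ceramide, from which glucosylceramide and sphingomyelin are made. Ceramidases release sphingosine again. The gut epithelium makes large amounts of glycosphingolipids for its brush border, many with a hydroxylated phytoceramide backbone, and it also digests dietary sphingomyelin at its surface, where alkaline sphingomyelinase and neutral ceramidase act in turn.

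All 10 genes matched an entry in the RefSeq promoter table of assembly GRCm38.p6, with 11 start sites in all because Acer3 had 2. The 250 bases before the start are shown for the pair of genes with the largest genotype differences in either direction (Sptssb and Acer1), for the brush-border ceramidase gene (Asah2) and for the member whose differences stayed smallest over the 3 days, at 0.04 or less (Degs2). Sequences run 5′ to 3′ on the gene's own strand, with capitals on matches to the GC box GGGCGG or its complement. Sptssb lies on the minus strand at chr3:69859895-69860144, Acer1 on the minus strand at chr17:56982127-56982376, Asah2 on the minus strand at chr19:32103141-32103390 and Degs2 on the minus strand at chr12:108702307-108702556.
Sptssb: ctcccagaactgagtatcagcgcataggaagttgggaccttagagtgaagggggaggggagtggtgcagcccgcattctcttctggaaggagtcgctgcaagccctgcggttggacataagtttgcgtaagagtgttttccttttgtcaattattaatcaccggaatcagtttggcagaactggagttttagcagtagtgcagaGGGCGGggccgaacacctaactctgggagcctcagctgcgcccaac
Acer1: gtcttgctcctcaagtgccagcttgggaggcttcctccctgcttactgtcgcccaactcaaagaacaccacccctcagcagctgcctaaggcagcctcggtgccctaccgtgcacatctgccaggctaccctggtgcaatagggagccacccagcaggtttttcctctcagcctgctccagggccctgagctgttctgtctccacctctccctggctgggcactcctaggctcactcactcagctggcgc
Asah2: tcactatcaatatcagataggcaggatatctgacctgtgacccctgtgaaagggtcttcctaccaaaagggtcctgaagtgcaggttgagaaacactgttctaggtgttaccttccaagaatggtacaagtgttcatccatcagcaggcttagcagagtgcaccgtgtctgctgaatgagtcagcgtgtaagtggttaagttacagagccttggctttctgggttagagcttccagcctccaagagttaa
Degs2: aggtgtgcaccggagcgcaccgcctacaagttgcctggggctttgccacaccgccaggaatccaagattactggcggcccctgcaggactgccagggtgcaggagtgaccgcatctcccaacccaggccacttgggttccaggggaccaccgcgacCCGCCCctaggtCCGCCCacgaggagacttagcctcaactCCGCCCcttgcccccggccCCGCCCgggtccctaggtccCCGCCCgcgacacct

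The Degs2 window held 5 GC boxes, the nearest ending 10 bases before the start, and the Sptssb window held 1. The Acer1 and Asah2 windows held none of the 7 motifs searched on both strands. General promoter elements searched were TATAAA as the core element that lies upstream of some starts, CCAAT as the element bound by factor NF-Y, and the GC box. Motifs of single factor families were CACGTG as the E-box, AGATAA for zinc finger factors of the gut epithelium, CAAAGTCCA for the nuclear receptor HNF4, and GAANNTTC for heat shock factors. Of all 32851 promoter windows of this length, 32.7% held a GC box. The ratio of observed to expected CpG was 0.18 for Acer1 and 0.14 for Asah2, against 0.52 for Sptssb and 0.62 for Degs2, with a median of 0.37 and quartiles of 0.17 and 0.72 over all windows. Of the windows not shown, Ugcg and Sptlc1 had the highest ratios, at 1.07 and 1.02, followed by Degs1 at 0.628 and Sptlc2 at 0.625. The Acer3 windows were at 0.582 and 0.156 and the Enpp7 window at 0.292. Among the other members with a value, the HNF4 motif was found before Sptlc1 and the E-box before Degs1; 0.384% and 6.02% of all windows held them. These are descriptions of the letters in the windows and were not tested against the expression values.

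The labelled tissue was checked with markers. All 10 enterocyte and brush-border markers passed the filter, with summed intensities of 138509 to 148933 on the L/L arrays and 138666 to 148785 on the KO arrays. Fitm2 itself gave intensities of 193, 223 and 211 on the L/L arrays of days 2, 3 and 5, against 123, 127 and 120 on the KO arrays. Its mean log2 difference was -0.76 ± 0.10 (SD over 3 days), with an adjusted p of 0.125 in limma, and the deleted part of the gene relative to the probe set is not given. The median intensity of the 6 arrays lay between 57.8 and 59.8. Other marker sums differed between genotypes, in the lists below with the widest gaps on day 5, apart from goblet cells. For stem cell and proliferation markers the L/L and KO ranges overlapped, and the KO sum was the higher on day 2. Goblet cell markers (6 measured of 6, 5 higher in KO on each day) summed to 48126 to 54670 over the L/L arrays and 55155 to 59623 over the KO arrays. Their gap was widest on day 3, at 48729 in L/L and 59623 in KO. Paneth cell markers (4 measured of 5, all 4 higher in KO on each day) summed to 22531 to 24017 over the L/L arrays and 27318 to 38950 over the KO arrays. Myeloid markers (5 of 5, 4 higher on each day) summed to 2050 to 2753 and 2959 to 4492, and enteroendocrine markers (6 of 6, 3 higher on each day) to 3387 to 5434 and 5495 to 6846. Stem cell markers (5 of 5, 1 higher and 1 lower on each day) summed to 6590 to 7511 in L/L and 2966 to 7470 in KO, the lowest being KO day 5, where the median difference of the list was -0.07. Proliferation markers (4 measured of 5, 1 higher on each day) summed to 5024 to 5729 and 3973 to 5440, with a median difference of -0.54 on day 5. All markers of these lists with a probe set passed the filter. In RNA from whole tissue, fewer cells of a type and less RNA per cell cannot be told apart. The part of these shifts in the values below was not tested.

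Over the 3 days, no member passed the limma test with day as a factor after Benjamini-Hochberg adjustment over all 13042 genes (adjusted p from 0.381 to 0.932). Over the same arrays 0.023% of all genes passed. At an unadjusted p under 0.05 stood 2 of the 9 members, Acer1 and Sptlc2, against 12.3% of all genes. By role, the ceramidase genes Acer1, Acer3 and Asah2 had mean differences of -0.66, -0.33 and -0.19 on the log2 scale, and the SPT small-subunit gene Sptssb had 0.99. Between these lay Sptlc1, Sptlc2, Degs1, Degs2 and Ugcg, from 0.01 to 0.22. The median over the 9 members was 0.03, and over all genes it was 0.01. On the brightest probe sets, KO and L/L intensities did not overlap for 1 member, Asah2, which was lower on every KO array than on any L/L array. Of all genes, 5.66% were separated in that direction. The dimmest Asah2 probe set was separated likewise, but the second brightest overlapped, at 1828 on KO day 3 against 1680 to 1817 in L/L. A single day has 1 array per genotype and so no test; there a difference of 1.5-fold was used for counting. On day 2 no member reached it, where 0.429% of all genes were higher and 0.107% lower by that margin. On day 3 Acer1 was lower by that margin, where 0.506% of all genes were; Sptssb read 0.62 higher, where 1.1% of all genes passed the margin, but its L/L value lay below the filter threshold, and against that threshold the difference was at least 0.29, short of the margin. On day 5 Sptssb was higher and Acer1 and Acer3 were lower, where 5.19% of all genes were higher and 3.1% lower. These counts hold for the brightest probe sets. The second probe sets of Acer1 and Acer3, also above the filter, fell short of the margin. They read -0.29 and -0.49 for Acer1 on days 3 and 5, and -0.56 for Acer3 on day 5. Both other Asah2 probe sets, also above the filter, passed the margin on day 5, at -0.63 and -0.78, where the brightest did not.

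**Figure D1:**
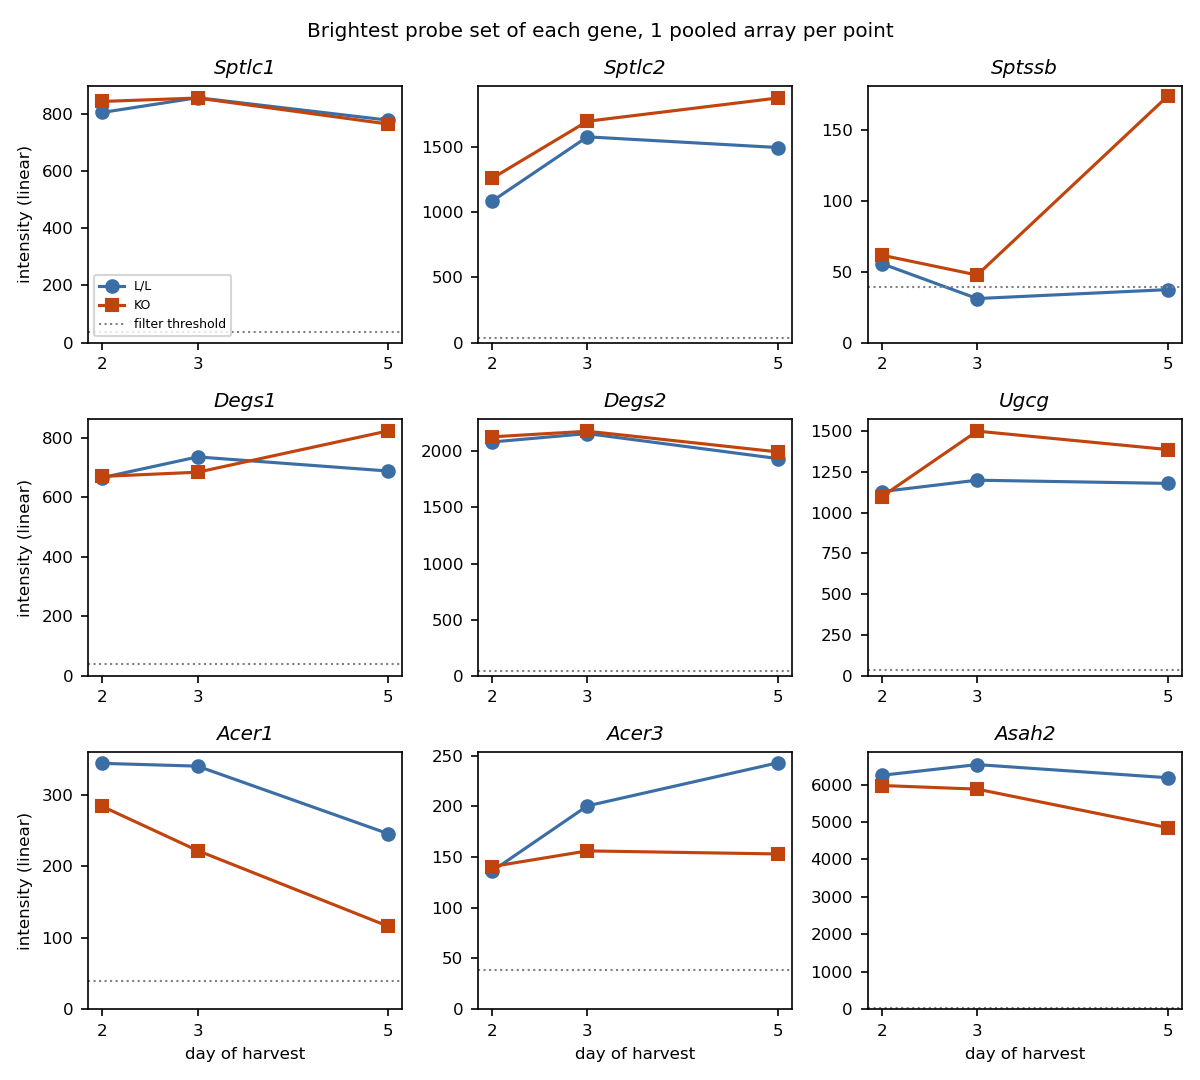
Linear intensity (y axes, from 0) against day of harvest (x axes) for the brightest probe set of the 9 genes with a value; circles are L/L, squares KO, each point is 1 array of pooled RNA, and the dotted line is the filter threshold of 38.9. Sptssb departs in KO on day 5 at 174 against 37.3 in L/L, Acer1 is lower in KO on every day, and Acer3 goes from 136 on day 2 to 243 on day 5 in L/L and from 141 to 153 in KO.

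Serine palmitoyltransferase (SPT) is a complex of 2 large subunits and a small activating subunit. Sptlc1, the large subunit without the catalytic site, gave intensities of 806, 857 and 779 on the L/L arrays of days 2, 3 and 5, against 844, 856 and 765 on the KO arrays. The groups overlapped. Its mean difference was 0.01 ± 0.05 (SD over 3 days; SE 0.06; adjusted p = 0.932 in limma), with a 95% interval of -0.14 to 0.17. The sign depends on the probe set. A second Sptlc1 probe set above the filter gave 0.13, -0.28 and -0.36 by day. Sptlc2, the subunit with the catalytic site, read 1083, 1575 and 1494 across L/L days and 1258, 1695 and 1873 across KO days. It was higher in KO on each day, by 0.22, 0.11 and 0.33, and the groups overlapped, the day 2 arrays of both genotypes being the lowest. The mean of 0.22 ± 0.11 (SE 0.07) had an unadjusted p of 0.0282 and an adjusted p of 0.39 in limma. The Sptlc2 probe sets disagreed. The second brightest read 510, 393 and 497 across L/L days and 503, 309 and 368 across KO days, a mean difference of -0.27, and the dimmest had a mean of 0.09. No direction can therefore be given for Sptlc2.

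Sptssb encodes one of the alternative small subunits, which stimulates the enzyme and widens its use of longer acyl-CoA substrates. Its intensity was 55.6, 31 and 37.3 on the L/L arrays of days 2, 3 and 5, against 61.6, 47.6 and 174 on the KO arrays. The KO array of day 5 stood apart from the other 5, which all lay between 31 and 61.6. On the log2 scale the differences were 0.15, 0.62 and 2.22. The difference rose with day, by 0.71 per day (SE 0.06; adjusted p = 0.0246 in limma for genotype by centred day), and it was higher in KO on 3 of 3 days. Among all 13042 genes 0.644% had a rising difference by that test, and Sptssb was the only member called in either direction. The test rests on 1 residual degree of freedom and on the moderated prior, and it was lost when no filter on dim genes was applied (adjusted p = 0.169; range over the alternatives 0.00563 to 0.169). The mean over the 3 days, 0.99 ± 1.09 (SE 0.40), had an adjusted p of 0.409 and was 0.38 without day 5. The L/L arrays of days 3 and 5 lay below the filter threshold. Measured against that threshold in place of the L/L value, Sptssb was at least 4.46-fold higher in KO on day 5 and at least 1.22-fold higher on day 3. The dimmer Sptssb probe set, itself below the filter on average, read 25.9, 18 and 26.4 across L/L days and 29.4, 26.3 and 45.6 across KO days. It had differences of 0.18, 0.55 and 0.79, the same sign and order at a smaller size on day 5. Sptssa, the more widely expressed small subunit, which is named here outside the rule and with its values seen, read between 3672 and 4638 on the 6 arrays, with differences of 0.01, -0.17 and -0.16.

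The dihydroceramide desaturase genes had mean differences of 0.05 and 0.03, neither past the test. Degs1 makes the double bond of ceramide. It read 666, 735 and 688 across L/L days and 670, 684 and 823 across KO days, with overlapping groups and a mean difference of 0.05 ± 0.19 (SE 0.09; adjusted p = 0.796 in limma), a 95% interval of -0.17 to 0.28, and -0.05 without day 5. Both Degs1 probe sets were higher in KO on day 5, by 0.26 and 0.25, and differed in sign on days 2 and 3. Degs2 also hydroxylates its substrate, which gives the phytoceramides typical of the gut. It read 2083, 2157 and 1935 across L/L days and 2128, 2178 and 1994 across KO days. Each day differed by 0.04 or less, and the mean of 0.03 ± 0.01 (SE 0.06; adjusted p = 0.835 in limma) had a 95% interval of -0.12 to 0.18. The 6 Degs2 values spanned 0.17 on the log2 scale, of the same order as the 0.16 of Sptlc1. Degs2 has 1 probe set.

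Ugcg encodes glucosylceramide synthase, the entry enzyme to the glucosylceramide-based glycosphingolipids. Its brightest probe set read 1128, 1198 and 1178 on the L/L arrays of days 2, 3 and 5, against 1098, 1498 and 1386 on the KO arrays. KO was higher on days 3 and 5, by 0.32 and 0.23, and level on day 2 at -0.04. The mean of 0.17 ± 0.19 (SE 0.09) did not pass (adjusted p = 0.447 in limma), and it was 0.28 without day 2 and 0.10 without day 3. Another probe set, with differences of mixed sign, read 1064, 1451 and 1213 across L/L days and 1134, 1275 and 1205 across KO days, or 0.09, -0.19 and -0.01 on the log2 scale. Of the 4 Ugcg probe sets, 3 were higher in KO on day 5 and 1 was not. Which of these probe sets best follows the transcript is not known from the files.

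**Figure D2:**
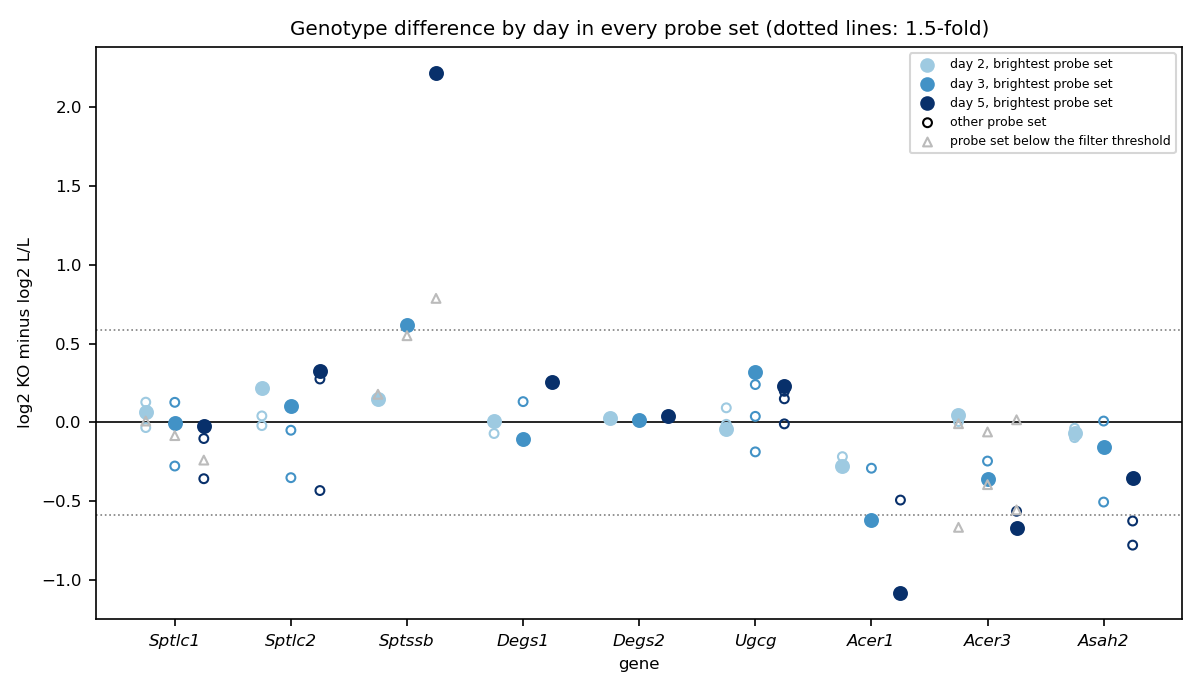
KO minus L/L on the log2 scale (y axis) for every probe set of each gene (x axis), with days 2, 3 and 5 from left to right in each gene and from pale to dark. Filled points are the brightest probe set, open circles other probe sets above the filter, and grey triangles probe sets below it. On day 5 the probe sets of Sptlc2 and Ugcg above the filter lie on both sides of 0. The 7 of Acer1, Acer3 and Asah2 above the filter are below 0 on that day, as are the 3 of Sptlc1. Those of Sptssb, Degs1 and Degs2 above the filter are above 0.

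The ceramidase genes Acer1, Acer3 and Asah2 had day 5 differences of -1.08, -0.67 and -0.35, and none passed either test. Of the ceramidase genes outside the 10, Acer2 was at 0.44 on day 5, and Asah1, the lysosomal acid ceramidase, at 0.11, -0.02 and -0.07 on days 2, 3 and 5 (named with its values seen). Of the 9 probe sets of Acer1, Acer3 and Asah2, 7 were above the filter, and each of the 7 was lower in KO on day 5, as were 48.6% of all such probe sets. Probe sets of 1 gene share its transcript and are not replicates. Acer1, an alkaline ceramidase of the endoplasmic reticulum best known from skin, gave intensities of 344, 340 and 245 on the L/L arrays of days 2, 3 and 5, against 284, 222 and 116 on the KO arrays. KO was lower on each day, though the KO value of day 2 lay above the L/L value of day 5. The log2 differences were -0.28, -0.62 and -1.08, a 2.12-fold lower level on day 5. The mean was -0.66 ± 0.40 (SE 0.16), with an unadjusted p of 0.00867 and an adjusted p of 0.381 in limma, and it was -0.45 without day 5. The change of the difference was -0.26 per day (SE 0.05; adjusted p = 0.0733), short of the threshold, where 0.583% of all genes had a falling difference. Over the alternatives this adjusted p ran from 0.0323 to 0.356. Acer1 ranked at place 213, 56 and 87 from the lowest of all genes on the 3 days. The second Acer1 probe set was lower in KO by 0.22, 0.29 and 0.49, less than the brightest on day 5. The 6 markers of stratified epithelium had a summed intensity of 249 to 288 in L/L and 250 to 278 in KO. Krt14, Krt1 and Ivl were below the filter, and the other 3, Krt5, Krt10 and Lor, were above it.

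Acer3, an alkaline ceramidase that acts on unsaturated long-chain ceramides, read 136, 200 and 243 across L/L days and 141, 156 and 153 across KO days. The genotypes were level on day 2 (0.05) and differed by -0.36 on day 3 and -0.67 on day 5. From day 2 to day 5 the L/L intensity was 1.79-fold higher and the KO intensity 1.09-fold. A second probe set above the filter, at 80.5, 108 and 135 across L/L days and 80.9, 91.5 and 91.1 across KO days, had the same course. The mean of -0.33 ± 0.36 (SE 0.14), which was -0.16 without day 5 and -0.51 without day 2, did not pass (adjusted p = 0.414 in limma), nor did the change of -0.23 per day (SE 0.05; adjusted p = 0.115 in limma). Of the 2 dim Acer3 probe sets, 1 was lower in KO on each day and the other differed by 0.06 or less on each day.

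Asah2, the neutral ceramidase of the brush border, read 6250, 6536 and 6185 across L/L days and 5977, 5880 and 4850 across KO days. The differences of -0.06, -0.15 and -0.35 had 1 sign on all days. Their mean of -0.19 ± 0.15 (SE 0.08; adjusted p = 0.41 in limma) had a 95% interval of -0.39 to 0.01, and it was -0.11 without day 5. Both other Asah2 probe sets were lower on day 5 by a wider margin. The middle one read 1680 in L/L and 1089 in KO, a difference of -0.63, but was level on day 3 at 0.01. The dimmest read 265, 359 and 399 across L/L days and 258, 253 and 233 across KO days, a difference of -0.78 on day 5. The dimmest also increased over the L/L arrays, which the brightest did not. On day 5 the summed enterocyte and brush-border markers were 138509 in L/L and 138666 in KO, and those of the intestinal epithelium 57063 and 55006. Sums were 43436 and 39192 for the proximal and 14199 and 13064 for the distal small intestine. The median differences of these lists on day 5 were 0.07, -0.08, 0.01 and 0.17, in that order. For the proximal and distal lists the sum was thus lower in KO while the median was not. The part of these markers in the Asah2 values was not tested.

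**Figure D3:**
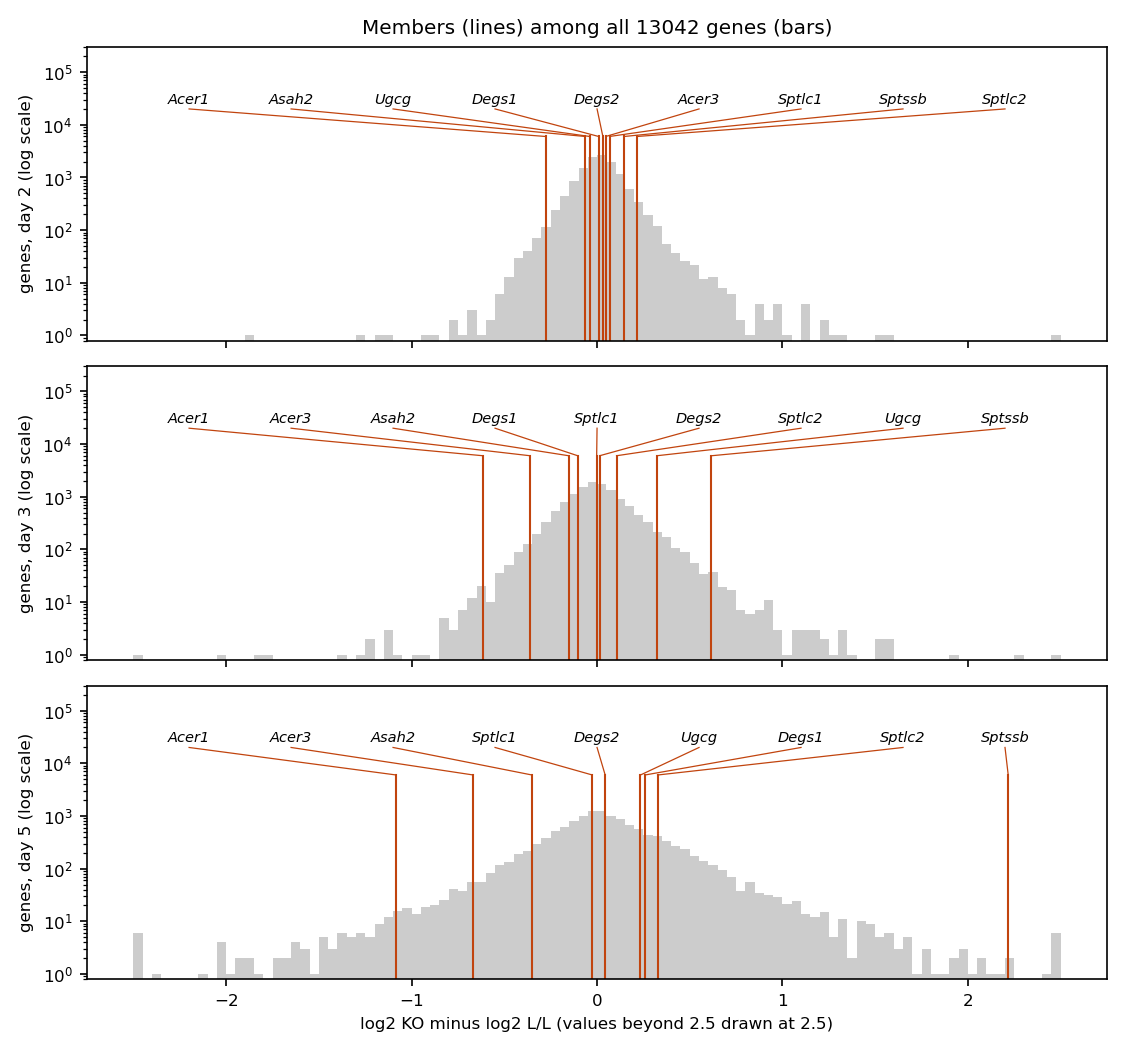
Distribution of KO minus L/L on the log2 scale (x axis) over all 13042 genes on days 2, 3 and 5 (bars; gene number on a log scale on the y axis), with a line at each of the 9 genes. On day 2 all 9 lie within 1.5-fold of 0; on day 5 Sptssb is at 2.22 and Acer1 at -1.08 while Sptlc1 and Degs2 remain near 0.

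Days within L/L gave a view of the same genes without Cre, from 1 array per day and with no test. From day 2 to day 3 Sptssb was lower by 0.84 on the log2 scale (0.51, short of 1.5-fold, with dim intensities raised to the filter threshold), and 0.736% of all genes were at least 1.5-fold lower. From day 2 to day 5 Acer3 was higher by 0.84, where 1.15% of all genes were at least 1.5-fold higher. No member reached that margin from day 3 to day 5, where 0.552% of all genes were higher and 1.42% lower by it. Sptlc2 was higher on L/L day 3 than on day 2 by 0.54, and in KO by 0.43, so its brightest probe set differed more between those days than between genotypes. Acer1 was lower on day 5 than on day 2 in both genotypes, by 0.49 in L/L and 1.29 in KO. Asah2 was level in L/L over the same days (-0.02), at -0.30 in KO. Within KO, Sptssb was 2.82-fold higher on day 5 than on day 2, whereas in L/L its difference was -0.58. Its L/L value of day 5 lay below the filter threshold. The dimmer Sptssb probe set, itself below the filter on average, gave 0.64 in KO and 0.03 in L/L between these days. Of all genes, 4.63% were at least 1.5-fold higher and 3.63% lower on KO day 5 than on KO day 2. The comparisons within L/L share arrays with those between genotypes.

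The 3 members with the widest range over the 6 arrays were Sptssb (2.48 on the log2 scale), Acer1 (1.57) and Acer3 (0.84). Among 560 genes with a range of at least 1, those whose log2 intensity correlated best with Sptssb over the 6 arrays were Hspa1b (r = 0.988), Ak7 (0.982) and F13a1 (0.981). Hspa1b read 373, 284 and 314 across L/L days and 381, 360 and 858 across KO days. The closest to Acer1 were Myorg (r = 0.994), C1qtnf12 (0.992) and Tbc1d31 (0.99). C1qtnf12 read 2442, 2529 and 1745 across L/L days and 1808, 1527 and 564 across KO days. The closest to Acer3 were Ms4a4b (r = 0.985), Me1 (0.964) and AA467197 (0.929). Me1 read 423, 954 and 1231 across L/L days and 458, 544 and 697 across KO days. These correlations describe 6 arrays that share days and genotypes, and they were the highest of 560. Those of Sptssb lean on 1 array, KO day 5, where it read 174 against 61.6 or less on the others. Ak7 lay below the filter threshold on L/L days 3 and 5 (34.2 and 37.4). Ms4a4b did so on L/L day 2, KO day 2 and KO day 3 (29.8, 29.3 and 34.4).

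The other genes of the pathway, 64 in number, lay on both sides of 0. Of these, 59 had a probe set of their own, and the others were not analysed here. The filter was passed by 56, Cers3, S1pr5 and Ugt8a being too dim. None of the 56 passed limma over the 3 days, with 6 higher and 5 lower at an unadjusted p under 0.05. The change with day passed in none, with 8 at an unadjusted p under 0.05. Of all genes, 7.68% were higher and 4.61% lower at an unadjusted p under 0.05 over the 3 days, and 18.4% had such a p for the change. The median differences were 0.02, -0.01 and -0.01 on days 2, 3 and 5, against 0.01, -0.01 and 0.02 over all genes. On all 3 days 16 genes were higher and 14 lower in KO, or 28.6% and 25%, where the shares of all genes were 22.1% and 17.4%. KO and L/L did not overlap in 9 genes above and 8 below, where 7.48% and 5.66% of all genes did so. On day 5, 3 of the 56 were at least 1.5-fold higher and 2 lower, where 5.19% and 3.1% of all genes were.

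**Figure D4:**
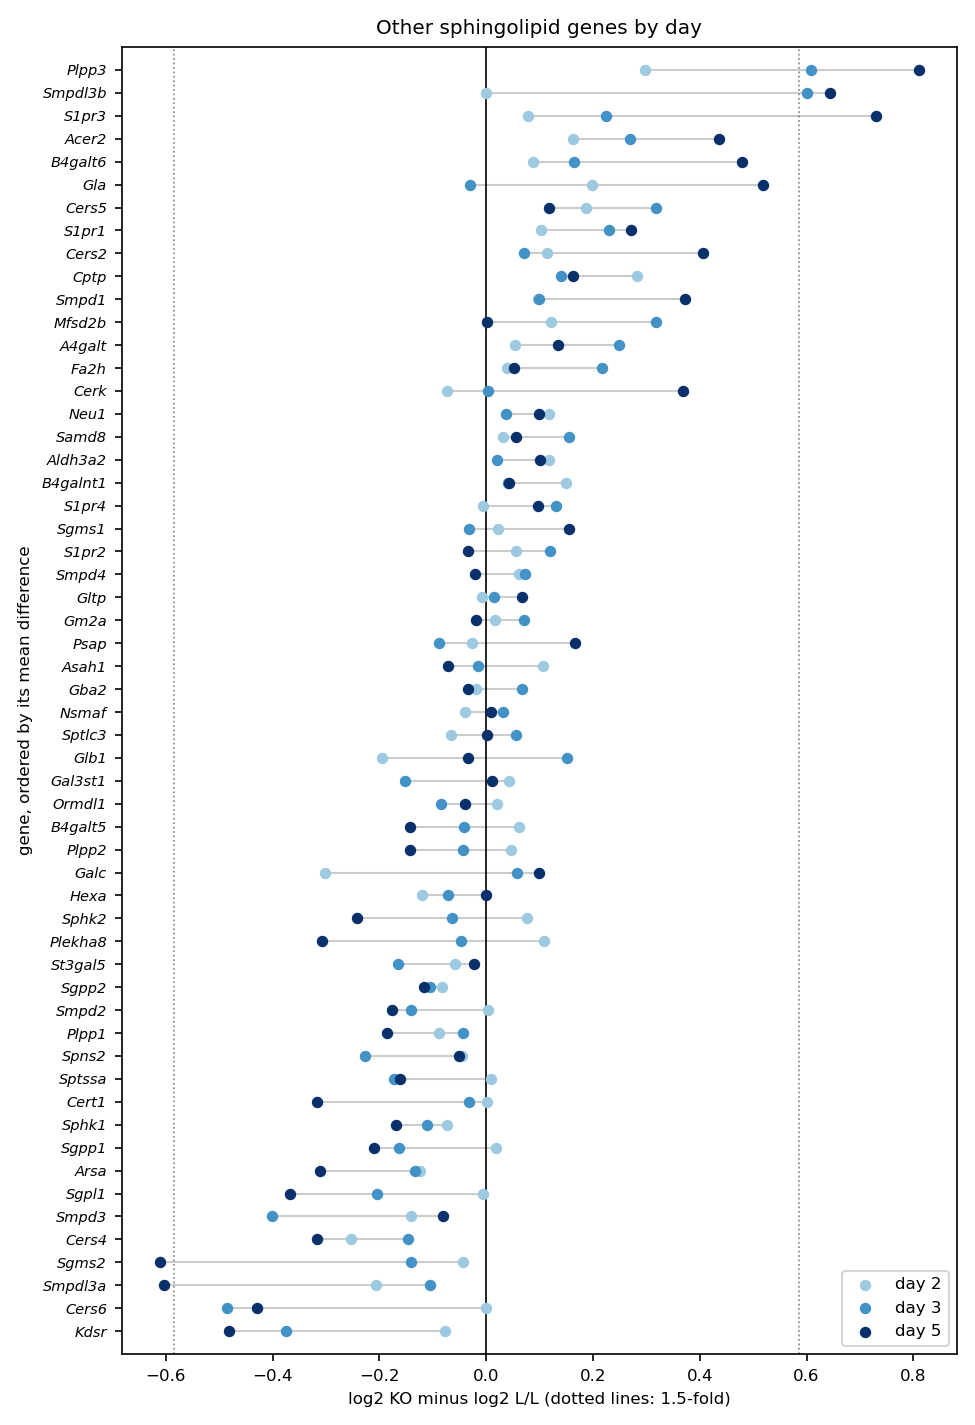
KO minus L/L on the log2 scale (x axis) on days 2, 3 and 5 (pale to dark points) for 56 further sphingolipid genes, ordered by their mean (y axis); grey lines join the lowest and highest day. Values spread to both sides of 0, with Plpp3, Smpdl3b and S1pr3 beyond 1.5-fold higher and Sgms2 and Smpdl3a beyond 1.5-fold lower on day 5. Of all genes, 5.19% were higher and 3.1% lower by that margin on day 5.

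Along the route to ceramide, Kdsr, the ketosphinganine reductase that follows SPT, read 420, 430 and 399 across L/L days and 399, 332 and 286 across KO days. Its mean of -0.31 (SE 0.10; adjusted p = 0.381 in limma) was shared by 2 further probe sets at -0.27 and -0.25. Cers6, the ceramide synthase that prefers shorter acyl chains, read 1055, 1160 and 1204 across L/L days and 1054, 829 and 894 across KO days, level on day 2 and lower on days 3 and 5 by 0.49 and 0.43. Sgms2, a sphingomyelin synthase, stood on day 5 at 986 in L/L against 645 in KO (-0.61), with a dimmer probe set at 0.21. The sphingomyelinase-like phosphodiesterase genes went apart on day 5, Smpdl3a at 1960 in L/L against 1290 in KO (-0.60) and Smpdl3b at 854 and 1335 (0.64). Acer2, the Golgi alkaline ceramidase, was higher in KO on each day, by 0.16, 0.27 and 0.44, opposite in sign to Acer1 and Asah2, a contrast between genes that was not tested. Its readings were 94.5, 105 and 84.8 across L/L days and 106, 127 and 115 across KO days, and its mean of 0.29 (SE 0.08) had an adjusted p of 0.381 in limma. The largest mean in the list was that of Plpp3, a lipid phosphate phosphatase that can remove the phosphate of sphingosine-1-phosphate. Plpp3 read 1024, 724 and 882 across L/L days and 1260, 1103 and 1546 across KO days, a mean of 0.57 (SE 0.11; adjusted p = 0.366 in limma), and its second probe set had a mean of 0.60. S1pr3, a sphingosine-1-phosphate receptor, read 201, 196 and 189 across L/L days and 212, 229 and 314 across KO days, a mean of 0.34 (SE 0.14; adjusted p = 0.408 in limma). Another S1pr3 probe set above the filter had a mean of -0.05. Plpp3 and S1pr3 are also expressed outside the epithelium. Summed endothelial markers (4 of 4, all 4 higher on each day) were 860 to 989 in L/L and 1067 to 1310 in KO. Fibroblast markers (5 of 5, 1 higher on each day) were 10415 to 12074 in L/L and 10881 to 16577 in KO, and smooth muscle markers (5 of 5, none of 1 sign on all days) 17412 to 22555 and 16703 to 25415. The part of these cells in the values was not tested.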

How the data were processed

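Pooled intestinal RNA was hybridised as biotinylated cRNA to 6 Affymetrix 3′ expression arrays, per the labels' protocols. The deposited table holds 1 intensity per probe set on a linear scale, from 3.82 to 31146. Partek and RMA are named in the submitters' processing notes, without versions, parameters or roles. Log2 was taken with no further normalization.

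Of 45101 probe sets, 64 being controls, 34945 were annotated to 1 gene and used, with symbols updated to assembly GRCm38.p6. Genes were kept when their brightest probe set had a mean log2 above the 40th percentile of non-control probe sets, 13042 of 18193. In limma 3.58.1 (R 4.3.3; lmFit and eBayes, two-sided) genotype was tested with day as a factor (2 residual degrees of freedom, prior 3.03), and genotype by centred day likewise (1, prior 4.76). The threshold was a Benjamini-Hochberg adjusted p of 0.05 over all genes kept. Both fits were run on simulated data with independent normal noise, its variances drawn from the prior of the genotype fit. Such data meet the model's assumptions by design, so that run checks the code and not the fit to these pools. SD is over the 3 days; SE and intervals come from the moderated fit.

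Each pool gave 1 array, so no p-value measures variation between mice, and the number of arrays limits the precision. For the mean difference, the p-value is set against how the genotype difference varied between days. For the change with day, it is set against the departure of the 3 daily differences from a straight line in day, moderated by the prior. Members, lists, motifs and tests were chosen with earlier results of these data known. Further genes named were the 6 pathway genes with the largest means of 1 sign, the 4 largest on day 5, and the 3 closest patterns to each of the 3 widest-ranging members. Alternatives covered probe set choice, filters, an offset of 32, centring, loess, eBayes settings, days left out and the day term. The promoters shown, using a second brightest probe set and raising dim intensities to the threshold were chosen after the data were seen.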

Additional observations from a re-analysis of the deposited data

Results flagged for a closer look

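The genotype difference of Sptssb changed between the days, by 0.71 per day on the log2 scale in KO relative to L/L, past the limma threshold for genotype by centred day (adjusted p = 0.0246). It is noted here because the effect of one contrast differed between time points by a test of that difference. The day 5 KO array was the highest of the 6, and the differences were 0.15, 0.62 and 2.22 on days 2, 3 and 5. With only days 2 and 3 no test of a change is left. No group had the 4 samples needed to look for a sample far from the others.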

How the results depend on the processing

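Of 141 recomputed mean differences of members, 135 kept their direction and stayed above the threshold; the other 6 changed sign. Sptlc1 turned to -0.065 with the mean of all probe sets, -0.014 without day 2 and -0.17 with the second brightest probe set, Degs1 to -0.048 without day 5, and Sptlc2 and Ugcg to -0.27 and -0.034 with the second brightest. No setting called a member over the 3 days. Of 105 recomputed changes with day, 97 kept direction and side. Sptlc2 and Ugcg turned to -0.12 and -0.016 per day with the second brightest probe set and Degs2 to -0.0038 with median centring. Sptssb lost its call without the intensity filter (adjusted p = 0.169) and kept it in the other 9 settings that retained the gene; the 60th percentile filter and the second brightest probe set left it too dim to test. Acer1 gained a call with the 60th percentile filter (adjusted p = 0.0408), the offset of 32 (0.0365), median centring (0.0443) and eBayes trend (0.0323). The cause was not tested; 18193 genes were adjusted over without the filter and 9823 with the stricter one. Of 702 single-day and day-to-day values, 631 moved by less than the SD over days and 71 by more. Of the 702, 48 changed sign, none of them from a reported value of 1.5-fold or more; Sptlc2 between KO days 2 and 3 went from 0.43 to -0.71 with the second brightest probe set. Genes called over the 3 days, 3 at first, were 1 with the mean of all probe sets, 1 without day 2, 0 without day 3 (606 at an unadjusted p under 0.05 in limma) and 6 with a linear day term. The median of the other sphingolipid genes was 0.0025, and 0.025 without day 2. Signals below the intensity of 38.9 limit Sptssb in L/L on days 3 and 5.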
